A study of Mus musculus with 22 samples.

Results

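The Toll-like receptors measured here were Tlr1, Tlr2, Tlr3, Tlr4, Tlr5, Tlr6, Tlr7, Tlr8, Tlr9 and Tlr13, chosen by gene symbol and matched to their Ensembl identifiers, 10 of the 41388 genes in the count files. All 10 passed the filter on low counts (above 1 CPM, the count scaled to library size, in at least 2 libraries), which 15018 genes passed. Their transcripts were followed across 22 RNA-seq libraries of stromal cells sorted from mouse breast tumors by TdTomato (TdT), a red reporter, and by CD45, the surface protein of leukocytes. Each of 2 genotypes gave 3 double positive (TdT+;CD45+), 3 CD45 single positive (TdT-;CD45+), 2 TdT single positive (TdT+;CD45-) and 3 double negative (TdT-;CD45-) libraries, hence 12 CD45+ and 10 CD45- libraries.

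The wild type mice were Osx-cre;Ai9 and the others Cdh2-cKO;Ai9, both C57BL/6 and at postnatal day 56. Osx-cre drives Cre recombinase from the promoter of Sp7, which encodes the osteoblast factor Osterix, and Ai9 then switches on TdT for good in a cell and its descendants, so the controls carry the Cre transgene and the reporter too. The transgene is held off by doxycycline, which the study gave in the diet until weaning. TdT, once on, stays on, so it records mainly Osx-cre activity after weaning and does not tell past from present activity. Sp7 itself had at most 1 count in any library. The labels name orthotopic MMTV-BO1 tumors, whereas the study describes subcutaneous PyMT-BO1 cells with GFP for this experiment and, in its methods, PyMT cells placed in the mammary fat pad. The GFP+ tumor cells were separated from the stroma. The labels do not tie a library to an animal. In 3 of the CD45- libraries both Ddx3y, a Y-linked gene, and Xist, which is expressed in females, were over 30 normalized CPM (wild type double negative 1 at 71.1 and 64.2, TdT single positive 2 labelled Cdh2-cKO at 59.7 and 53.1, and double negative 2 labelled Cdh2-cKO at 32.1 and 157), and whether libraries pool animals is not given in the sources used here. The p-values below measure the spread between libraries, which may be partly technical.

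Toll-like receptors are pattern recognition receptors that bind conserved molecules of microbes or of damaged cells and signal, through adaptors such as MYD88 and TRIF, to NF-κB and interferon regulatory factors. TLR1, TLR2, TLR4, TLR5 and TLR6 sit at the cell surface and sense mainly lipids and proteins, and TLR3, TLR7, TLR8, TLR9 and TLR13 sit in endosomes and sense nucleic acids. In tumors they are best known from macrophages, dendritic cells and other myeloid cells, but fibroblasts and epithelial cells can carry some of them.

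The libraries held 16594228 to 26784003 counts, with a median of 18977040. Values are given as normalized CPM, in which the library total was scaled by TMM factors. Ptprc, the gene of CD45, was at 465 to 1691 normalized CPM in the CD45+ and at 2.40 to 337 in the CD45- libraries. All 6 macrophage markers were higher in the CD45+ libraries, where their summed level was 3329 to 15455, and all 5 fibroblast markers were higher in the CD45- libraries, where their sum was 3233 to 43431 against 45.7 to 159. Of the epithelial markers, Krt8 and Krt18 were higher in the CD45- libraries (Krt18 at 17.5 to 1630 against 16.8 to 168). Epcam was higher in the CD45+ libraries, and Krt14 was not called. Whether tumor or other epithelial cells remained in the CD45- libraries was not tested. Of the libraries that stood apart, wild type CD45 single positive 2 held lymphocyte transcripts (Cd79a at 804, Cd3e at 478) and had the lowest macrophage sum, 3329. Wild type double negative 3 and Cdh2-cKO TdT single positive 1 kept pan-leukocyte transcripts (Ptprc, Laptm5, Coro1a, Cd52, Tyrobp) at 43.0% to 68.0% and 21.7% to 49.7% of the CD45+ median. Cdh2, the deleted gene, was not lower in the CD45- libraries labelled Cdh2-cKO: it was at 13.1, 19.1 and 14.6 in the Cdh2-cKO and 6.17, 7.47 and 4.51 in the wild type double negative libraries, and at 16.8 and 12.5 against 8.95 and 4.89 in the TdT single positive ones. Of these, only the TdT single positive cells carry the mark of Osx-cre activity. The double negative values therefore bear little on a deletion by Osx-cre. The difference in double negative cells did not pass the test (log2 fold change 1.37, SE 0.69, edgeR adjusted p = 0.599), and a test in TdT single positive cells is not given here. A gene-level count does not resolve deleted exons, so these are called the libraries labelled Cdh2-cKO.

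All 10 receptors were higher in the CD45+ than in the CD45- libraries, by log2 fold changes of 0.62 (Tlr3) to 4.11 (Tlr9), and none of them differed detectably between double positive and CD45 single positive cells. Tlr2 was the most abundant member and Tlr13 the next. Tlr9 was close to the detection limit and passed the filter on low counts through the CD45+ libraries, where it is high. Tlr3 was low in every library, at 4.13 to 11.2 normalized CPM, CD45- ones included. The plot of the 10 receptors by library shows these levels.

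**Figure D1:**
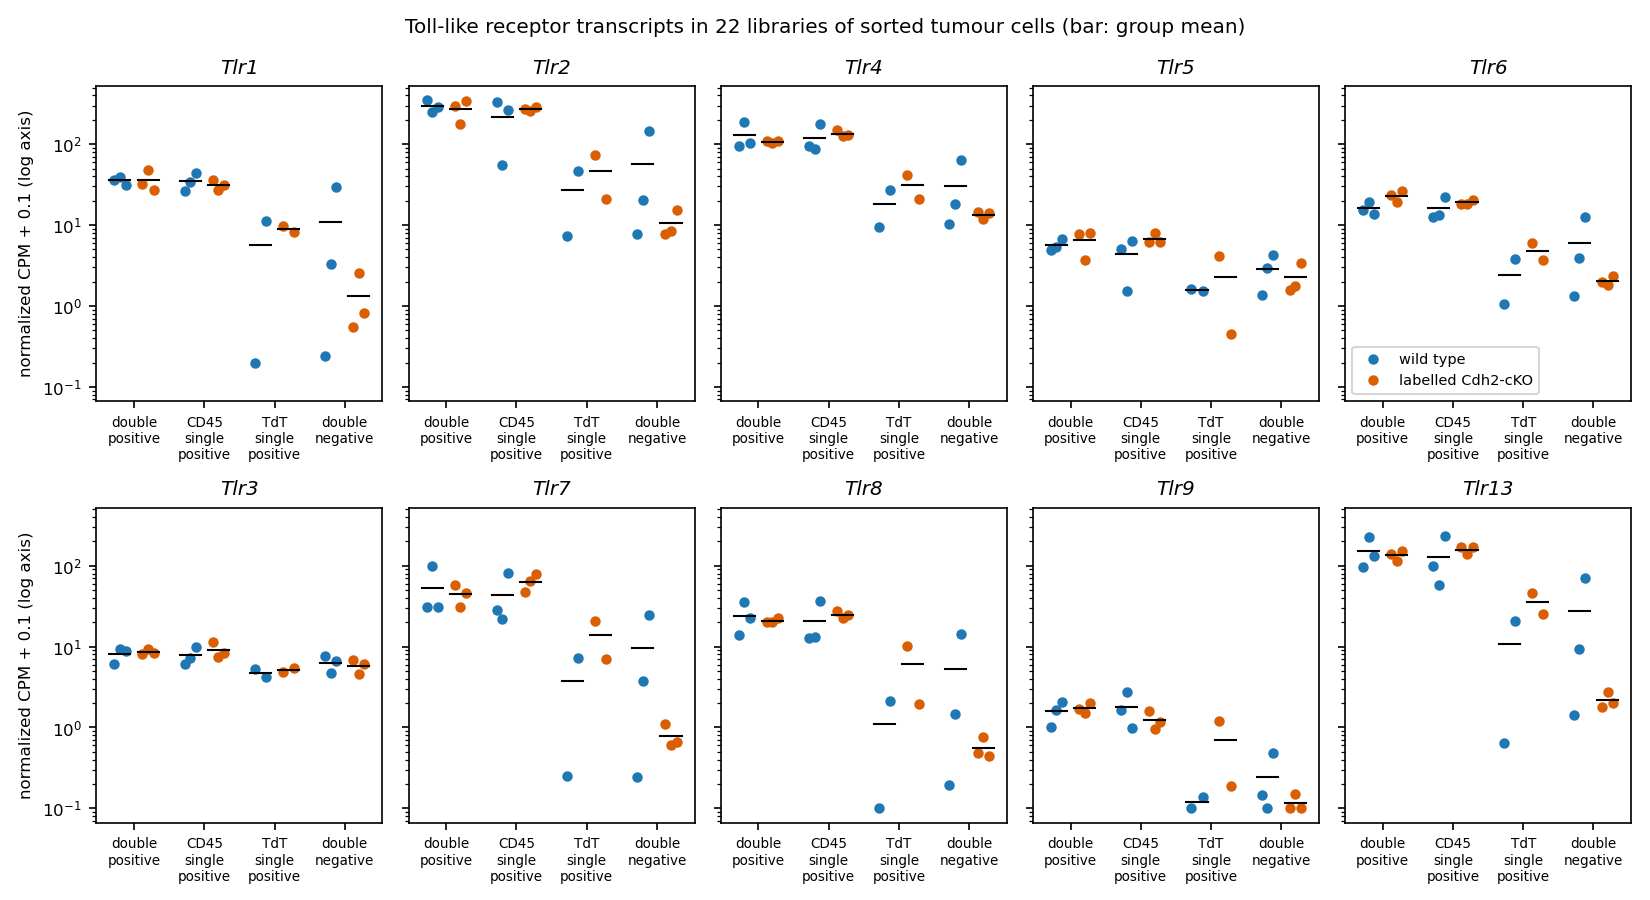
Each panel plots 1 receptor, with normalized CPM + 0.1 on a log axis against the 4 sorted populations. Each point is 1 of the 22 libraries, blue for wild type and orange for the libraries labelled Cdh2-cKO, and each bar is a group mean of 2 or 3 libraries. Tlr4 is above 87 in every CD45+ and at most 63.3 in every CD45- library, while Tlr3 lies between 4.13 and 11.2 throughout.

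Levels were compared between genes per transcript length, as RPKM, the normalized CPM per kilobase of exon. Over the 12 CD45+ libraries the order was Tlr2 at 87.5 ± 26.5 RPKM (mean ± SD), Tlr13 at 35.05 ± 12.4, Tlr4 at 22.1 ± 5.92, Tlr1 at 12.96 ± 2.61, Tlr7 at 12.6 ± 6.07, Tlr6 at 7.09 ± 1.62, Tlr8 at 6.27 ± 2.17, Tlr3 at 1.89 ± 0.351, Tlr5 at 1.78 ± 0.587 and Tlr9 at 0.429 ± 0.152. Neighbours closer than the larger of their SDs were Tlr1 and Tlr7, Tlr7 and Tlr6, Tlr6 and Tlr8, and Tlr3 and Tlr5. Tlr13 and Tlr4 differed by about the SD of Tlr13. The 2 other mouse members of the family were lower still or uneven. Tlr11, which had 0 to 2.34 normalized CPM, did not pass the filter, and Tlr12 was at 1.20 to 6.76 in 11 of the CD45+ libraries but at 42.5 in double positive 2 labelled Cdh2-cKO.

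Among the surface receptors, Tlr2 forms pairs with Tlr1 or Tlr6 that recognize bacterial lipopeptides. Tlr2 was at 348, 248 and 286 normalized CPM in the wild type double positive libraries, at 294, 179 and 338 in those labelled Cdh2-cKO, at 331, 55.8 and 265 in the wild type CD45 single positive libraries and at 273, 257 and 290 in those labelled Cdh2-cKO. The TdT single positive libraries had 7.20 and 46.1 (wild type) and 72.8 and 20.6 (labelled Cdh2-cKO), and the double negative libraries 7.59, 20.1 and 144 and then 7.64, 8.41 and 15.2. The groups overlapped only through wild type CD45 single positive 2, the lowest CD45+ library, and through wild type double negative 3 and Cdh2-cKO TdT single positive 1, the highest CD45- libraries. The difference was a log2 fold change of 3.16 (SE 0.504, 95% interval 2.09 to 4.22, edgeR adjusted p = 3.67e-05). Its partners were lower. Tlr1 ranged from 26.1 to 48.1 with a median of 33.1 in the CD45+ libraries and from 0.10 to 29.5 with a median of 2.82 in the CD45- ones, and Tlr6 from 12.5 to 25.9 (median 18.7) against 0.950 to 12.6 (median 2.94). Their log2 fold changes were 2.76 (SE 0.639, adjusted p = 0.00114) and 2.44 (SE 0.321, adjusted p = 4.9e-06). Tlr1 (chromosome 5, 64924811 to 64932761, GRCm38, minus strand) and Tlr6 (64953106 to 64960048) lie 20344 bases apart and share sequence. Of the 50-base words of Tlr1 exons, 15.4% also occur in other genes, in Tlr6 more than in any other. That part of their counts is uncertain.

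Tlr4 binds bacterial lipopolysaccharide together with its partner MD2, the product of Ly96. It was at 96.1, 188 and 104 normalized CPM in the wild type double positive libraries, 94.0, 87.4 and 178 in the wild type CD45 single positive libraries, 110, 102 and 108 in the double positive libraries labelled Cdh2-cKO and 148, 127 and 131 in the CD45 single positive libraries labelled so. The CD45- values were 9.25 and 27.2 (wild type TdT single positive), 41.5 and 21.2 (the same population labelled Cdh2-cKO), 10.3, 18.2 and 63.3 (wild type double negative) and 14.3, 11.8 and 13.9 (double negative labelled Cdh2-cKO). Tlr4 was the member whose CD45+ and CD45- libraries did not overlap at all, which held for 3.28% of all genes tested in that direction. Its log2 fold change was 2.48 (SE 0.299, 95% interval 1.85 to 3.11, adjusted p = 1.79e-06). Tlr5, the receptor of bacterial flagellin, was low, from 1.44 to 7.82 with a median of 6.10 in the CD45+ and from 0.349 to 4.13 with a median of 1.58 in the CD45- libraries, and differed by 1.42 (SE 0.358, 95% interval 0.67 to 2.18, adjusted p = 0.00215).

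Among the endosomal receptors, Tlr3 binds double-stranded RNA and signals through TRIF alone. It was at 5.98, 9.37 and 8.81 normalized CPM in the wild type double positive libraries, 6.02, 7.18 and 9.87 in the wild type CD45 single positive libraries, 8.11, 9.33 and 8.28 in the double positive libraries labelled Cdh2-cKO, and 11.2, 7.35 and 8.18 in the CD45 single positive libraries labelled so. In the CD45- cells it was at 5.20 and 4.13 (wild type TdT single positive), 4.81 and 5.41 (that population labelled Cdh2-cKO), 7.54, 4.55 and 6.55 (wild type double negative) and 6.64, 4.43 and 5.91 (double negative labelled Cdh2-cKO). The groups overlapped, the CD45- median of 5.30 lying below the CD45+ median of 8.23. The log2 fold change of 0.62 (SE 0.146, 95% interval 0.32 to 0.93, adjusted p = 0.00122) was the smallest of the 10, and it was 0.35 (adjusted p = 0.0592) with library totals not scaled by factors, a scaling that moved the median of all genes to -0.25. Of the 50-base words of Tlr3 exons, 5.30% also occur in other genes, mostly in the predicted gene Gm45542, which leaves that part of its count uncertain.

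Tlr7 and Tlr8 are neighbouring, closely related receptors of single-stranded RNA (X chromosome, 167304929 to 167330558 and 167242696 to 167264329, both on the minus strand of GRCm38 and 40599 bases apart), and Tlr13, which recognizes bacterial ribosomal RNA, lies elsewhere on the X chromosome (106143204 to 106160493). Tlr7 ranged from 21.8 to 98.1 normalized CPM with a median of 46.6 in the CD45+ and from 0.141 to 24.6 with a median of 2.31 in the CD45- libraries, a log2 fold change of 3.57 (SE 0.659, adjusted p = 0.00015). Tlr8 ranged from 12.6 to 36.2 (median 22.2) against 0 to 14.3 (median 1.02), a log2 fold change of 3.51 (SE 0.642, adjusted p = 0.000139). Both overlapped between CD45+ and CD45- cells, Tlr7 because wild type CD45 single positive 2 at 21.8 lay below wild type double negative 3 at 24.6, and Tlr8 because 3 wild type CD45+ libraries at 12.6 to 13.7 lay below the same double negative library at 14.3.

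Tlr13 was at 95.6, 225 and 132 normalized CPM in the wild type double positive, 99.4, 57.0 and 231 in the wild type CD45 single positive, 140, 113 and 150 in the Cdh2-cKO-labelled double positive and 168, 139 and 168 in the Cdh2-cKO-labelled CD45 single positive libraries. It was at 0.550 and 20.7 (wild type) and 46.4 and 24.9 (labelled Cdh2-cKO) in TdT single positive cells, and at 1.32, 9.31 and 70.7 (wild type) and 1.72, 2.62 and 1.93 (labelled Cdh2-cKO) in double negative cells. Apart from wild type double negative 3 at 70.7 and wild type CD45 single positive 2 at 57.0, the groups did not overlap, and the log2 fold change was 3.56 (SE 0.607, 95% interval 2.28 to 4.83, adjusted p = 7.1e-05).

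Tlr9, the receptor of unmethylated CpG DNA, was at 0.868 to 2.66 normalized CPM with a median of 1.52 in the CD45+ libraries, which is 13 to 50 counts a library. In the CD45- libraries it had 0 to 2 counts in 8 of 10, 7 counts in wild type double negative 3 (0.385 normalized CPM) and 33 counts in TdT single positive 1 labelled Cdh2-cKO (1.10). Of these only the last was above 1 CPM, so Tlr9 passed the filter on low counts through the CD45+ libraries. Its fitted log2 fold change of 4.11 (SE 0.595, 95% interval 2.86 to 5.36, adjusted p = 1.34e-05) was the largest of the 10, and with so many counts at or near 0 its size depends on the prior count of the fit.

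The promoters printed here are those of Tlr9, which had the largest fitted difference, and of Tlr8 and Tlr6, from the endosomal and the surface group. Each is the 250 bases before the gene's start in RefSeq on GRCm38.p6 that lie outside the Ensembl gene, 5′ to 3′ on the strand of the gene. RefSeq windows were found for 8 of the 10 receptors, and Tlr4 and Tlr7 had none in the table used. Capitals mark the motifs found among 5 searched on both strands: the letters TATAAA of a TATA box, GAGGAAGT of the PU.1 type, TGANTCA of the AP-1 type, and motifs of the interferon response and NF-κB types.
Tlr9 promoter, plus strand, chr9:106222348-106222597: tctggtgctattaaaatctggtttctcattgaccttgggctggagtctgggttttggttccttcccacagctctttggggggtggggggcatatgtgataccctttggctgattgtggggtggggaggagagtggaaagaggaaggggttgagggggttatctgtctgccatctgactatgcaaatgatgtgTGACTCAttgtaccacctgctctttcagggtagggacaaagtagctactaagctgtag
Tlr8 promoter, minus strand, chrX:167264330-167264579: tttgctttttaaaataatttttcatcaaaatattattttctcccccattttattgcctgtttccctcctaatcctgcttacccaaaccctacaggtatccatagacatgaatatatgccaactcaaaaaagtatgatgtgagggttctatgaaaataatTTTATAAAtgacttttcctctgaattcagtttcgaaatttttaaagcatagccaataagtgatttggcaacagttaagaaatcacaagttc
Tlr6 promoter, minus strand, chr5:64960049-64960298: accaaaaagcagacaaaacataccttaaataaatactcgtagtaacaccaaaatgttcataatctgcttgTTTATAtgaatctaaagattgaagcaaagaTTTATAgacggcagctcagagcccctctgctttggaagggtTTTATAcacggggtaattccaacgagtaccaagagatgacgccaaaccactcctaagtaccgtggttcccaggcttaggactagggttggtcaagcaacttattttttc

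The Tlr9 window holds 1 AP-1 type match, which begins 58 bases before the start, and windows with this motif make up 6.75% of the 32851 windows of all genes. The Tlr8 window has an overlapping pair of TATAAA matches, on opposite strands, 91 and 89 bases before the start, and the Tlr6 window has 3 on the strand opposite to the one printed, at 180, 150 and 109 bases, where the capitals show the reverse complement. A TATAAA match is in 12.4% of all windows. Of the windows not printed, that of Tlr3 holds an NF-κB type match, found in 1.41% of all windows, a second window of Tlr6 holds an overlapping pair of interferon response type matches (2.98%), 1 of the Tlr1 windows holds GAGGAAGT (2.44%), and the windows of Tlr2, Tlr5 and Tlr13 and the other window of Tlr1 hold none of the 5.

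Read against the rest of the genome, the call of 10 of 10 receptors as higher in CD45+ cells compares with 31.2% of all genes tested (32.1% were lower), and the 8 receptors whose log2 fold change was also at least 2 compare with 8.5% (edgeR quasi-likelihood test, adjusted p of at most 0.05). Both counts include Tlr9, which passed the filter on low counts through the CD45+ libraries. The median log2 fold change of the 10 was 2.96, and that of all genes 0.03. Within TdT+ cells (6 double positive against 4 TdT single positive libraries) all 10 were called, beside 23.5% of all genes, with log2 fold changes of 0.77 (Tlr3) to 3.61 (Tlr9), and 8 of them, all but Tlr5 and Tlr9, did not overlap (17.9% of all genes). Within TdT- cells (6 CD45 single positive against 6 double negative) 9 were called, beside 24.5%, from 0.48 for Tlr3 (adjusted p = 0.0445) to 4.61 for Tlr9, and only Tlr4 and Tlr9 did not overlap (6.05%). This call of Tlr3 was lost in 12 of the 22 fits that left out 1 library (edgeR adjusted p up to 0.131), and with library totals not scaled by factors (0.23, adjusted p = 0.373), without the low-count filter (adjusted p = 0.0785) and with the replicate block (adjusted p = 0.0686). Tlr5 missed the threshold there at 1.12 (95% interval 0.14 to 2.10, adjusted p = 0.0512). Other fits called it, among them limma (1.30, adjusted p = 0.0070), DESeq2 (1.13, adjusted p = 0.0272) and edgeR with the replicate block (1.17, adjusted p = 0.0466).

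These calls rested unequally on the genotypes, though the share of all genes called in each genotype alone is not given here. In the libraries labelled Cdh2-cKO alone all 10 were called, with a median log2 fold change of 3.42. In the wild type libraries alone 6 were called, with all 10 above 0 and a median of 2.54. Tlr1 (2.17, adjusted p = 0.152), Tlr3 (0.55, adjusted p = 0.112), Tlr7 (3.03, adjusted p = 0.0649) and Tlr13 (3.04, adjusted p = 0.0524) missed the threshold there. A test of the difference of the CD45 effect between the genotypes called none of the 10 (0% of all genes), and none at an unadjusted p under 0.05 (7.82%). Limma and DESeq2 called 0 as well. Without wild type CD45 single positive 2 and wild type double negative 3 the median rose to 3.61, and without Cdh2-cKO TdT single positive 1 as well it was 3.73, with all 10 called in both fits. Within TdT+ cells the call of Tlr1 (adjusted p = 0.0466) was lost in 16 of the 22 fits that left out 1 library, and without Cdh2-cKO TdT single positive 2 also those of Tlr7, Tlr8 and Tlr13, which left 6.

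**Figure D2:**
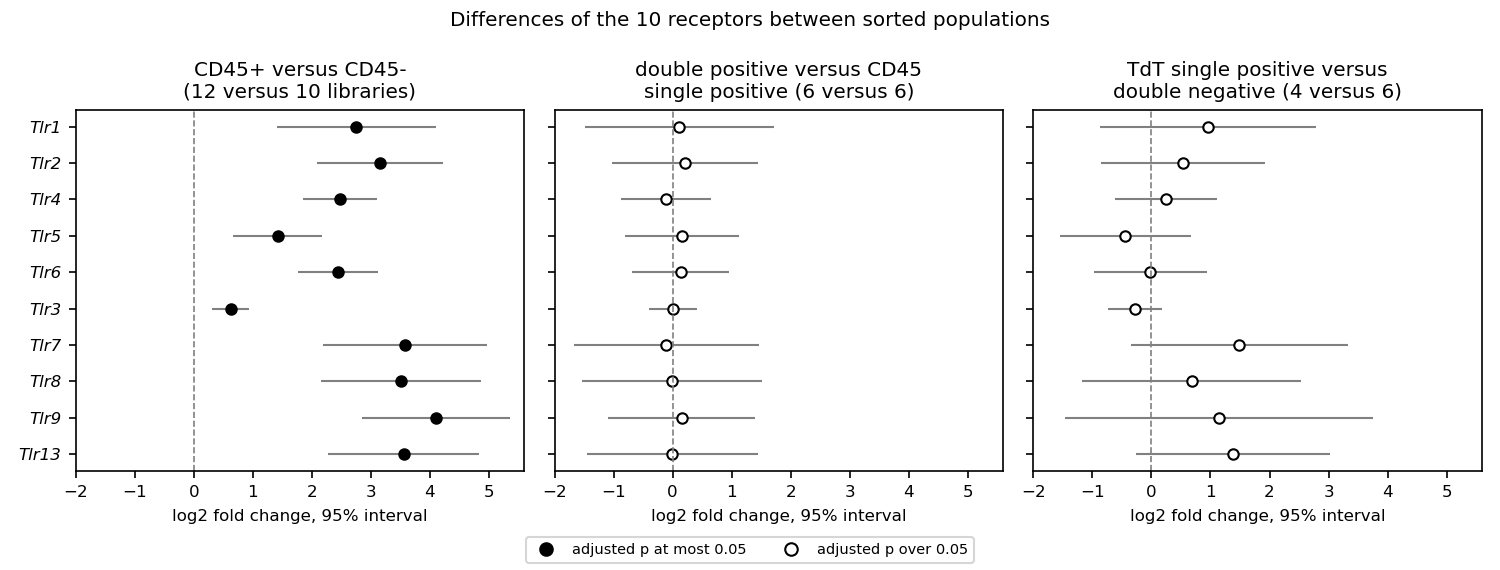
Each point is the log2 fold change of 1 receptor with its 95% interval, filled where the adjusted p was at most 0.05. The panels compare CD45+ with CD45-, double positive with CD45 single positive, and TdT single positive with double negative libraries. All 10 intervals lie above 0 in the first panel, from 0.62 for Tlr3 to 4.11 for Tlr9, and all 20 in the other panels span 0.

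No receptor differed detectably between double positive and CD45 single positive cells, the immune cells with and without a history of Osx-cre activity. None of the 10 was called, beside 0.00666% of all genes, and none reached an unadjusted p under 0.05 (3.83% of all genes). Limma with voomWithQualityWeights and DESeq2 also called 0. The log2 fold changes ran from -0.12 for Tlr4 to 0.21 for Tlr2. The intervals show what these 6 against 6 libraries could tell: Tlr3 was bounded to between -0.40 and 0.41 and Tlr4 to between -0.88 and 0.65, whereas Tlr7 could lie anywhere from -1.68 to 1.46. Median levels were 290 and 269 normalized CPM for Tlr2, 106 and 129 for Tlr4, 136 and 153 for Tlr13, 38.3 and 56.1 for Tlr7 and 8.55 and 7.76 for Tlr3, in double positive and CD45 single positive cells.

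TdT single positive and double negative cells, the non-immune stroma with and without that history, did not differ by the test either, with 0 of 10 called beside 2.04% of all genes and none at an unadjusted p under 0.05 (19.4%). Limma with voomWithQualityWeights and DESeq2 called 0 too. The log2 fold changes ran from -0.44 (Tlr5) to 1.49 (Tlr7, 95% interval -0.35 to 3.33), and the lowest adjusted p was 0.353. The genotypes went opposite ways. In the libraries labelled Cdh2-cKO 8 receptors were called as higher in TdT single positive cells, all but Tlr3 and Tlr5, with a median of 2.60 over the 10. In the wild type libraries all 10 were under 0, with a median of -1.22, and 0 were called. The share of all genes called in each genotype alone is not given beside these counts. The difference between the genotypes was over 0 for all 10 (48.9% of all genes) with a median of 3.53, and in that test 0 receptors were called (0.00666% of all genes), the lowest adjusted p being 0.145 for Tlr9. At an unadjusted p under 0.05 there were 7 (9.89% of all genes). DESeq2 called 4, beside 558 of all genes, and limma 0. The difference shrank to a median of 1.29 without wild type CD45 single positive 2 and wild type double negative 3.

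Leukocyte transcripts moved the same way in these 10 libraries. The 5 pan-leukocyte genes summed to 39.8 and 1169 normalized CPM in the wild type and to 2858 and 1288 in the Cdh2-cKO-labelled TdT single positive libraries, and to 62.1, 797 and 4596 in the wild type and 147, 205 and 151 in the Cdh2-cKO-labelled double negative libraries, against 7651 to 9311 in the CD45+ libraries. None of the 5 was at 0 in any library. The part of these leukocyte transcripts in the receptor differences among CD45- cells was not tested, and in bulk libraries fewer cells of a type and less RNA per cell cannot be told apart.

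Each receptor was set beside the pan-leukocyte genes, as its level in a CD45- library in percent of its median over the CD45+ libraries. This percent restates the CD45+ against CD45- difference library by library, so receptors with a small difference exceed the leukocyte genes more readily. How many of all genes exceed them was not counted. Tlr3 exceeded all 5 leukocyte genes in 10 of the 10 CD45- libraries, at 50.2% to 91.7%. Tlr4, Tlr5 and Tlr6 exceeded them in 8 each. Tlr1 and Tlr2 did so in 4, Tlr9 in 3, Tlr7 and Tlr13 in 1 and Tlr8 in 0. Set beside 6 macrophage genes as well, Tlr3 exceeded all 11 in 9 libraries, Tlr4 and Tlr5 in 7, Tlr6 in 6, Tlr1 in 4, Tlr2 and Tlr9 in 3, and Tlr7, Tlr8 and Tlr13 in 0. For Tlr9, with a CD45+ median of only 1.52 normalized CPM, 1 count was enough for this in wild type double negative 1.

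In the libraries with the fewest leukocyte transcripts the receptor percentages lay far apart, and which cells they came from was not tested. In wild type TdT single positive 1 the leukocyte genes were left at 0.372% to 0.592% of the CD45+ median, and there Tlr3 was at 63.2%, Tlr5 at 24.6%, Tlr4 at 8.49%, Tlr6 at 5.09% and Tlr2 at 2.58%. The 6 macrophage genes reached up to 2.23% there (Csf1r), so Tlr2 was little above the highest of them. In the same library Tlr1 was at 0.302%, Tlr7 at 0.322% and Tlr13 at 0.394%, in the leukocyte range or below it, and Tlr8 and Tlr9 had 0 counts. Wild type double negative 1, with leukocyte genes at 0.574% to 0.834%, gave nearly the same order, Tlr3 at 91.7%, Tlr5 at 20.9%, Tlr4 at 9.47%, Tlr6 at 6.57% and Tlr2 at 2.72%, with Csf1r at 2.00%. There Tlr13, at 0.946%, was above the leukocyte genes but under Csf1r, Tlr1 (0.427%), Tlr8 (0.424%) and Tlr7 (0.303%) were below them, and Tlr9 had 1 count. These percentages rest on 104 and 160 counts for Tlr3, 185 and 219 for Tlr4, 144 and 161 for Tlr2, but only on 30 and 27 for Tlr5 and 19 and 26 for Tlr6. The plot of receptors left in CD45- libraries shows all 10 libraries in this way.

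**Figure D3:**
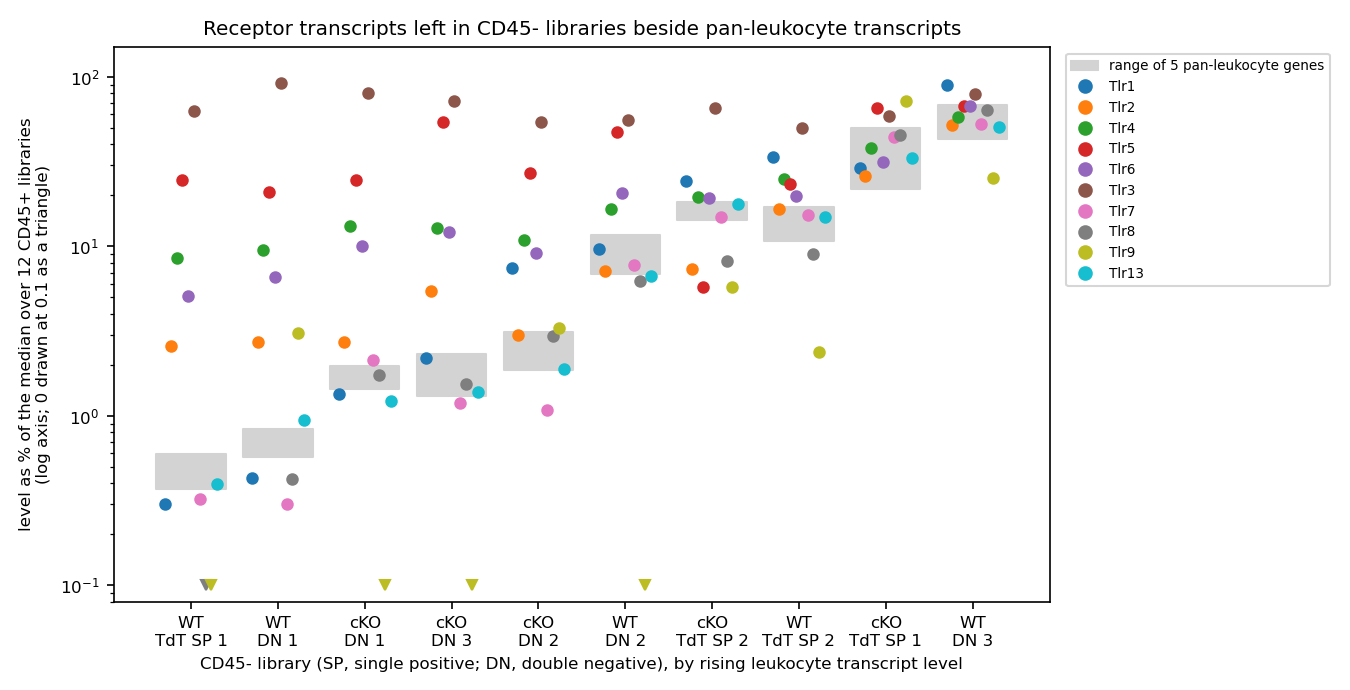
For each of the 10 CD45- libraries, ordered by leukocyte transcript level, colored points give each receptor as a percent of its median over the 12 CD45+ libraries (log axis, 0 drawn as a triangle at 0.1), and the grey bars the range of the 5 pan-leukocyte genes. Tlr3 lies above the bar in all 10 libraries and Tlr8 in none.

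Between the genotypes no receptor was called in any population, where 0% of all genes were called in double positive, CD45 single positive and double negative cells and 0.00666% in TdT single positive cells. In double positive cells the log2 fold changes of the libraries labelled Cdh2-cKO against wild type ran from -0.28 (Tlr4) to 0.52 (Tlr6) and in CD45 single positive cells from -0.57 (Tlr9) to 0.66 (Tlr5). In TdT single positive cells the largest was 4.51 for Tlr9 (95% interval 1.47 to 7.54, edgeR adjusted p = 0.321), which rests on the 33 counts in 1 library against 2, 1 and 0 in the other 3. It was the 1 receptor with an unadjusted p under 0.05 there (10.6% of all genes). In double positive and CD45 single positive cells there were 0 (3.45% and 8.93%), and 0 for the mean over the 4 populations (11.4%, with 0% called). The difference between double positive and CD45 single positive cells did not depend detectably on the genotype either, with 0 called (0%) and 0 at an unadjusted p under 0.05 (4.09%). In these comparisons limma and DESeq2 called 0 as well.

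In double negative cells all 10 were under 0 in the libraries labelled Cdh2-cKO (51.8% of all genes), with a median of -2.57, and 7 had an unadjusted p under 0.05 (9.3% of all genes). Tlr13 was at 1.72, 2.62 and 1.93 against 1.32, 9.31 and 70.7 normalized CPM in wild type (log2 fold change -3.69, SE 1.12, edgeR adjusted p = 0.195). Tlr7 was at 0.996, 0.503 and 0.557 against 0.141, 3.63 and 24.6 (-3.78, adjusted p = 0.219). In both, the lowest of all 6 libraries was wild type double negative 1 and the highest wild type double negative 3, so the groups overlapped. Ptprc moved with them, by -3.36 (adjusted p = 0.219), and its part in these values was not tested. DESeq2 called 3 receptors, Tlr7, Tlr8 and Tlr13, limma 0, and edgeR 6 without wild type double negative 1. Over the edgeR fits that left out 1 library, 0 to 604 of all genes were called. The share of all genes called by DESeq2 is not given here. Without wild type CD45 single positive 2 and wild type double negative 3 the median was -0.42 and the lowest adjusted p 0.994.

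The other genes of the pathway were counted by role in lists, between CD45+ and CD45- cells, where 31.2% of all genes were called higher and 32.1% lower. Of 9 endogenous ligands, 5 were lower in CD45+ cells and 2 higher. Bgn and Dcn, which encode the matrix proteoglycans biglycan and decorin, were lower by log2 fold changes of -7.52 and -7.47 (adjusted p = 5.51e-11 and 6.06e-11, edgeR), and Tnc, which encodes tenascin C, by -6.56. Dcn is also one of the fibroblast markers counted above. Bgn was at 10.4 to 34.6 normalized CPM in the CD45+ and at 995 to 9890 in the CD45- libraries, without overlap. The calprotectin genes S100a8 (2.56) and S100a9 (2.04) were the higher ones.

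Of 13 co-receptors, chaperones and transporters 9 were higher and 2 lower, beside 31.2% and 32.1% of all genes. Cd14, which hands lipopolysaccharide to TLR4, was at 1015 to 7132 normalized CPM in the CD45+ and 20.8 to 1191 in the CD45- libraries (log2 fold change 3.85, adjusted p = 3.56e-05). Unc93b1, which carries the endosomal receptors out of the endoplasmic reticulum, differed by 2.51, but Ly96, the partner of TLR4, only by 0.65. The lower ones were Lbp, which encodes the lipopolysaccharide binding protein (-5.44), and Tril, which encodes an accessory protein of TLR4 and TLR3 and had 0.220 to 3.54 normalized CPM in the CD45- libraries and at most 0.106 in the CD45+ libraries. Tril thus passed the filter on low counts only through the CD45- libraries, where it is high, and the count of 2 lower genes includes it.

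Of 10 endosomal processing enzymes 8 were higher (31.2% of all genes) and 2 lower (32.1%). Ctss, which encodes cathepsin S, differed by 3.37, Pld4, which encodes an endosomal nuclease, by 3.23, and Ctsk, the cathepsin best known from osteoclasts, by -2.36. Of 20 adaptors and kinases tested 11 were higher and 2 lower, against the same shares of all genes, led by Btk (3.51), Ticam2, a bridging adaptor of TLR4 (3.50), and Pik3ap1 (3.19), with the shared adaptor Myd88 at 0.65. Of 8 transcription factors 4 were higher and none lower, beside 31.2% and 32.1% of all genes, and the 4 included Irf5 (3.17), Rel (2.95) and Irf7 (0.80).

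Of 12 negative regulators 8 were higher and 2 lower, beside 31.2% and 32.1% of all genes. Tnfaip8l2 differed by 3.09 and Tnfaip3, which encodes the ubiquitin-editing enzyme A20, by 1.67. Sigirr, a receptor that dampens the pathway, was lower by -1.37 (adjusted p = 0.00614), a call lost without wild type TdT single positive 2 (-0.73, adjusted p = 0.10). Of 14 cytokines and enzymes that the pathway is known to induce, 10 were higher (31.2% of all genes) and 1, Il6, was lower (-1.67, 32.1% of all genes), with Il1b at 4.04, Ccl3 at 3.24 and Tnf at 3.10. Between double positive and CD45 single positive cells 0 genes of these lists were called, and between TdT single positive and double negative cells Hspd1 alone, which encodes a mitochondrial chaperonin listed with the ligands, was lower (-0.61, adjusted p = 0.0395).

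**Figure D4:**
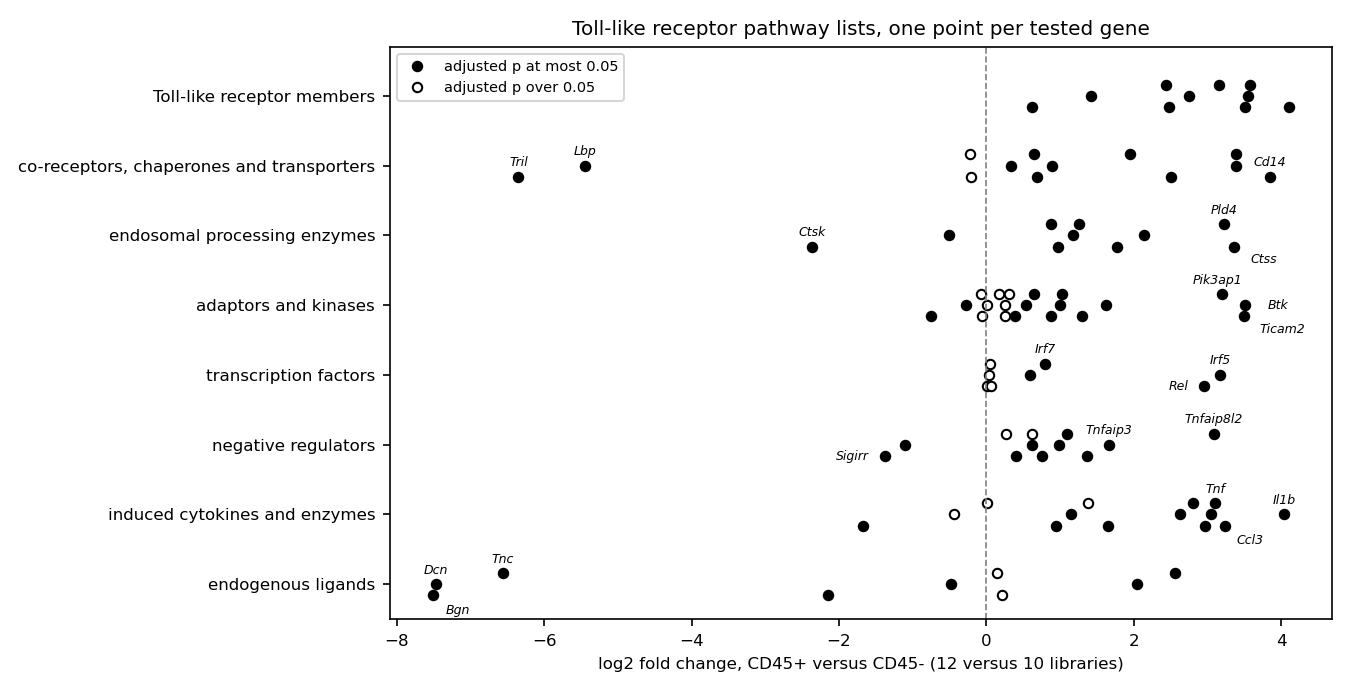
Each point is 1 tested gene of a pathway list, placed by its log2 fold change between 12 CD45+ and 10 CD45- libraries and filled where the adjusted p was at most 0.05. The 10 receptors lie between 0.62 and 4.11, and the ligand genes Bgn, Dcn and Tnc lie at -6.56 or lower.

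Across the 12 CD45+ libraries, some members varied together. The points share library depth, sorting and 2 genotypes, so Spearman's rho is given only as a description. Tlr4 and Tlr13 had a rho of 0.951, Tlr4 with Tlr7 and Tlr4 with Tlr8 0.937, Tlr8 and Tlr13 0.909, and Tlr1 and Tlr2 -0.441. The genes most like each member were taken as those with the highest rho among genes with a mean over 1 normalized CPM. They included Aoah for Tlr13 (0.993), Cd163 for Tlr4 (0.986), Stk19-ps1 (0.986) and Ccl2 (0.958) for Tlr7, Lactb2 for Tlr8 (0.958), Pwwp2b (0.958) and Nlrp3 (0.923) for Tlr2, Chst1 for Tlr6 (0.951), Chchd6 (0.944) and Egr2 (0.923) for Tlr5, Metap1d for Tlr3 (0.923), Gpsm1 for Tlr9 (0.909) and Mettl8 for Tlr1 (0.853). Without wild type CD45 single positive 2, Tlr13 and Aoah kept a rho of 0.991 over 11 libraries and Tlr4 and Tlr13 0.936.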

How the data were processed

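The count, CPM and RPKM columns were deposited by the authors for each library: SMARTer cDNA, counted without strand, with STAR 2.0.4b, Subread featureCounts 1.45 and GRCm38 named in the processing notes. The deposited CPM and RPKM values follow from the counts, so the counts were used. Genes of ribosomal RNA and genes not above 1 CPM in at least 2 libraries were removed, TMM factors were computed, and 1 mean per population and genotype was fitted over all 22 libraries with edgeR 4.0.16 (glmQLFit, glmQLFTest) in R 4.3.3, with Benjamini-Hochberg adjustment over 15018 genes and calls at an adjusted p of at most 0.05. Alternatives used limma 3.58.1 (voomWithQualityWeights), which is nearest to the study's own fit, and DESeq2 1.42.0. The script was tested on simulated data. The members and lists were chosen with earlier results of these data known. Named were all members, Tlr11, Tlr12, Cdh2, Ptprc and Sp7, up to 3 called genes a list with the largest change between CD45+ and CD45- cells, and of the 3 genes most like each member by rho some examples. S100a8, S100a9, Unc93b1, Ly96, Myd88, Il6 and Hspd1 were added after their values were seen. Sequences are from RefSeq, GRCm38.p6.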

Additional observations from a re-analysis of the deposited data

How the results depend on the processing

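Over all results and alternatives, 1982 values kept their direction and side of the threshold, 76 kept the direction but not the call, 12 counts moved by more than 1.5 times, and 0 reversed. In the wild type libraries alone the receptors called between CD45+ and CD45- cells numbered 6, between double positive and TdT single positive cells 2, and between CD45 single positive and double negative cells 0. In the last of these comparisons 2143 of all genes were called. Between TdT single positive and double negative cells 8 were called in the libraries labelled Cdh2-cKO alone and 3 without wild type CD45 single positive 2 and wild type double negative 3 (0 when Cdh2-cKO TdT single positive 1 was left out too). DESeq2 called 3 between the genotypes in double negative cells and 4, beside 558 of all genes, in the difference of the TdT effect between the genotypes. Leaving out each library in turn gave 10 in every fit for CD45+ against CD45-, 6 to 10 within TdT+ cells (6 without Cdh2-cKO TdT single positive 2), 8 to 10 within TdT- cells, 0 to 1 for TdT single positive against double negative (1, Tlr13, without wild type double negative 3), 0 to 6 for the genotypes in double negative cells (6 without wild type double negative 1) and 0 to 5 for the difference of the TdT effect (5 without wild type double negative 1, 4 without wild type TdT single positive 2). All genes called in these fits numbered 8777 to 9923, 5655 to 8184 and 7214 to 8344 for the first 3 comparisons. For the next 3 they numbered 20 to 806, 0 to 604 and 0 to 637. The 7 comparisons left had 0 receptors called in every such fit. The causes were not tested. The fits without scaling factors, with Y-linked transcripts as a term and without 3 libraries, and the values of single receptors in 1 genotype alone, were chosen after seeing the data.

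The labels number the libraries alike in each group, but the numbers were not taken to pair them in the main fits: the correlation of deviations between same-numbered libraries of a genotype ran from -0.379 to 0.676 over 30 pairs, with a median of 0.062 and 10 pairs over 0.1, and over 60 differently numbered pairs the median was -0.029 with 11 over 0.1. Y-linked transcripts followed the numbers more closely. Ddx3y was at 54.2 to 120 normalized CPM in all wild type libraries numbered 1. It was at 32.1 to 86.8 in those numbered 2 and labelled Cdh2-cKO, save CD45 single positive 2 (0.735). Wild type CD45 single positive 2 had 171, and every other library at most 0.443. Same-numbered libraries may thus share animals, which was not tested and which the main fits do not model. With the replicate block 10 receptors were called between CD45+ and CD45- cells, 10 within TdT+ and 9 within TdT- cells, where Tlr5 gained (adjusted p = 0.0466) and Tlr3 lost (adjusted p = 0.0686) its call by edgeR, and 0 in the other comparisons fitted. Counts near 0 limit what can be said of Tlr9, Tlr11 and Tlr8 in CD45- cells, where 3 counts are the floor.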

Other observations

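Transcripts of the Y chromosome divided the CD45+ libraries, a feature noticed after the data were seen. Ddx3y was over 10 normalized CPM in 4 of them (wild type double positive 1, CD45 single positive 1 and 2, and double positive 2 labelled Cdh2-cKO) and not in the other 8. The 4 libraries were lower than all 8 others in Tlr4 (87.4 to 102 against 104 to 188 normalized CPM), Tlr5 (1.44 to 4.98 against 5.20 to 7.82), Tlr8 (12.6 to 19.8 against 20.2 to 36.2) and Tlr13 (57.0 to 113 against 132 to 231), which was so for 1.66% of 12926 genes tested and for 4.6% of 413 X-linked genes. Tlr7, also X-linked, overlapped slightly, at 21.8 to 31.1 against 30.6 to 98.1. None of the 10 passed an edgeR test of this split (Tlr7 log2 fold change -1.17, Tlr13 -0.94, both adjusted p = 0.413, Tlr8 -0.88, adjusted p = 0.433), while 0.0387% of all genes did. Tlr12 went the other way, at 4.19 to 42.5 against 1.20 to 3.54 (log2 fold change 2.09, adjusted p = 0.403), and 1.44% of the 12926 genes were higher in all 4 libraries. The value of 42.5 was that of double positive 2 labelled Cdh2-cKO. The 4 libraries include wild type CD45 single positive 2, and 3 of them are wild type, so the split is not balanced over the groups.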
